A study of Mus musculus with 32 samples.

Results

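The 10 genes described here encode enzymes that break down or build long-chain fatty acids: Cpt1a, Acadvl, Acadl, Acadm, Hadha and Hadhb on the oxidation side, and Fasn, Elovl6, Scd1 and Scd2 on the synthesis side. They were taken as every probe set annotated to these symbols on either of 2 Affymetrix array types, called array A and array B, and are 10 of 18194 genes named on the arrays. They were measured by 20 probe sets, 18 on array A and 2 on array B. An overall level filter left 17 probe sets for testing, all on array A, with at least 1 for each of the 10 genes. The 3 untested probe sets were Acadl 1448988_at on array A, with a group mean of 2.53 to 2.54, and Elovl6 1442656_at and Hadhb 1442732_at on array B, with group means of 3.09 to 3.21 and 3.21 to 3.26. All values are on a log2 scale, so a difference of 1 unit corresponds to a doubling.

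RNA came from early-passage primary mouse embryonic fibroblasts, which are mixed embryonic cells grown in culture. Wild type and Oct-1 mutant cells were each studied without and with irradiation, giving 4 groups of 4 replicates. Oct-1, the product of Pou2f1, is a transcription factor of the POU family, and its gene lies on chromosome 1 of the GRCm38.p6 assembly, as does Acadl. The allele, the radiation dose, the time after irradiation and whether replicates came from separate embryos are not stated in the labels, so p-values describe the spread between these samples only. The annotation named 0 probe sets for Pou2f1, so the mutation itself was not checked on these arrays.

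Long-chain fatty acids enter mitochondria as carnitine esters made by carnitine palmitoyltransferase, and are then shortened in repeated rounds of beta oxidation that feed the respiratory chain. Synthesis runs the other way in the cytosol and at the endoplasmic reticulum: fatty acid synthase makes palmitate, elongases lengthen it and desaturases add double bonds. Proliferating fibroblasts draw on synthesis for membrane lipids, while oxidation is the better known activity of liver, heart and muscle.

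Fibroblast markers matched the labelled cell type: 15 of 15 on array A passed the filter, with a median level of 12.75 and Vim highest at 14.76. Of the other lists on array A, 0 of 10 hepatocyte, 0 of 7 endothelial, 3 of 11 adipocyte, 2 of 11 muscle, 3 of 9 macrophage and blood, 3 of 7 epithelial, 5 of 7 neural and 2 of 5 cartilage and bone markers passed. On array B, 3 of 4 fibroblast, 1 of 2 hepatocyte, 1 of 1 adipocyte and 2 of 4 muscle markers passed. So did 0 of 1 macrophage and blood, 1 of 1 epithelial, 1 of 2 neural and 1 of 1 cartilage and bone markers there. The epithelial one was Epcam, at 9.44 on array B and 3.39 on array A, where it did not pass. With irradiation, averaged over genotypes, 4 of 15 fibroblast markers fell and 0 rose, against 5.47% and 7.38% of all probe sets tested on array A. Their mean level was 11.54 to 11.65 in wild type unirradiated and 11.33 to 11.51 in wild type irradiated arrays, and 11.86 to 12.23 and 11.71 to 12.08 in the mutant ones, and its part in the results was not tested. Irradiation was visible in the check genes. Mdm2, a p53 target that holds p53 down, rose by 1.74 (SE 0.30, adjusted p = 0.0027) in wild type and by 1.60 (SE 0.30, adjusted p = 0.00484) in mutant cells. Plk1, a mitotic kinase, changed by -1.57 (SE 0.08, adjusted p = 6.81e-08) and -1.86 (SE 0.08, adjusted p = 5.45e-09). Replicate numbers carried a shared shift: replicates 1 and 2 have the lower title numbers and replicates 3 and 4 the higher ones, and these are called the first and the second number run here. The difference between the 3′ and 5′ control probe sets of Gapdh is a sign of RNA integrity. It was 0.08 higher in irradiated than in unirradiated arrays on array A and 0.01 higher on array B. For beta-actin, irradiated minus unirradiated was -0.01 on array A and -0.02 on array B. These differences were likewise not tested against the results.

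Promoter sequence was held for 8 of the 10 genes, in RefSeq windows of 250 bases before to 50 after the annotated start (GRCm38.p6). Scd1 and Scd2 were not among them. The 250 bases before the start are printed for Acadvl, Hadhb and Elovl6, each with at least 1 probe set that changed with irradiation averaged over genotypes (1 of 2 for Hadhb). They lie at chr11:70015429-70015678 on the minus strand (Acadvl), chr5:30155003-30155252 on the plus strand (Hadhb) and chr3:129532136-129532385 on the plus strand (Elovl6). Capitals mark matches on either strand to the nuclear receptor half-site AGGTCA or to the GC box GGGCGG.
Acadvl: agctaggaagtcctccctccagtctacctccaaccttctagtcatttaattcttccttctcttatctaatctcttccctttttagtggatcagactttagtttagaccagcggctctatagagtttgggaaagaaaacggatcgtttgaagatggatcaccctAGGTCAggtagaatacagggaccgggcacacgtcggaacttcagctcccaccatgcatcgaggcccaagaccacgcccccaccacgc
Hadhb: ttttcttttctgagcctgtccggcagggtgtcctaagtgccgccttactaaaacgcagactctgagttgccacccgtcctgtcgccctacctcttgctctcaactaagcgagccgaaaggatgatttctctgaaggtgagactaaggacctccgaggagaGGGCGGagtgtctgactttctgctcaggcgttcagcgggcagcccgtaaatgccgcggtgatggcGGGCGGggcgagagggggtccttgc
Elovl6: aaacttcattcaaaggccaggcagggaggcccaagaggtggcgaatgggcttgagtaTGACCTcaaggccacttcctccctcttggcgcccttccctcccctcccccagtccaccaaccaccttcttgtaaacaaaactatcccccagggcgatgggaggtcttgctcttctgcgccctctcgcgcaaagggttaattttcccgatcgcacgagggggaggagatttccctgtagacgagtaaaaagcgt
Hadha and Hadhb, the genes of the 2 subunits of the mitochondrial trifunctional protein, start 273 bases apart in opposite directions. Their upstream windows share 228 bases, so the Hadhb sequence also shows most of the Hadha promoter read from the other strand. The octamer ATGCAAAT, the sequence that Oct-1 is known to bind, had matches in 0 of 8 windows, against 1.74% of 32851 windows of all genes. The half-site AGGTCA occurred in 4 of 8 windows (Elovl6, Acadm, Acadvl and Cpt1a) against 16.3% of all, and GGGCGG in 4 of 8 (Acadl, Hadha, Hadhb and Cpt1a) against 35.7%. The only Hadha match, at -188, is the same stretch of shared bases as the Hadhb match at -90, so it enters that count for both genes. CCAAT, bound by NF-Y, occurred in 2 of 8 (Fasn and Cpt1a) against 37.4%. The E-box CACGTG and the sterol response sequence TCACNCCAC each occurred in 0 of 8, against 7.15% and 1.24%. Both strands were searched. A match describes letters in this window and is not evidence of binding, and the absence of a match says nothing on sites elsewhere.

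Averaged over genotypes, irradiation raised 2 probe sets of oxidation genes, Acadvl and 1 of 2 for Hadhb, and lowered both Elovl6 probe sets, the brightest Scd2 probe set and 1 of 3 for Cpt1a. This was 6 of 17 member probe sets (35.3%) with an adjusted p under 0.05, against 12.8% of all 13582 probe sets tested on array A. The genes were chosen with earlier results of these data known, so such shares are descriptions only. By direction, 2 of 17 rose and 4 of 17 fell, against 7.38% and 5.47% of all. The median change over the 17 was -0.12, beside 0.01 over all probe sets. With replicate number as a block, 8 of 17 passed (47.1%), 3 higher and 5 lower, against 25.2% of all. In wild type cells alone 1 of 17 passed (5.88%, against 3.84% of all), and with the block 3 of 17 (17.6%, against 10.4%). In mutant cells alone 3 of 17 passed (17.6%, against 4.65%), and with the block 7 of 17 (41.2%, against 12.8%). The changes were small, between -0.57 and 0.39 in either genotype.

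**Figure D1:**
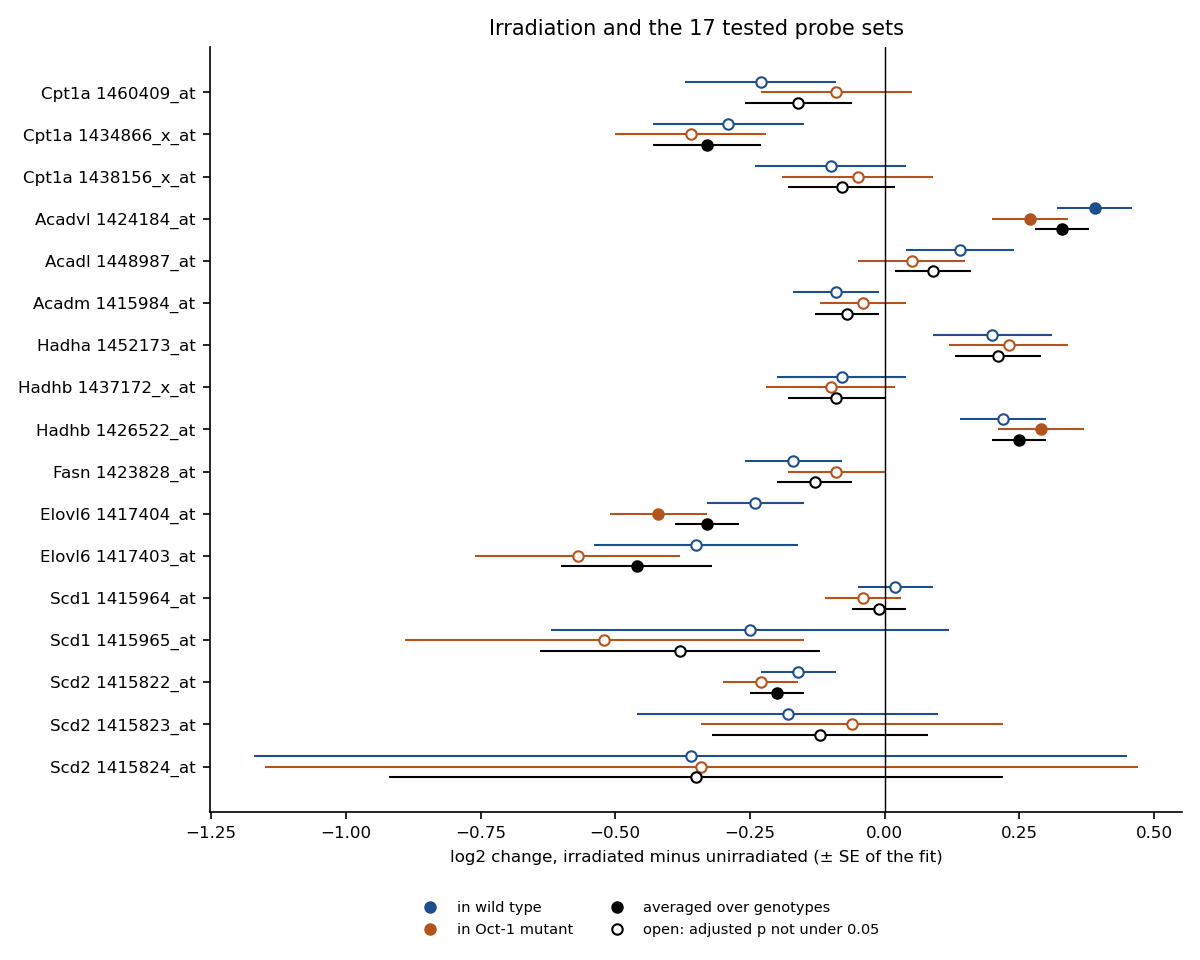
Log2 change with irradiation (horizontal axis, bars ± SE of the fit) for the 17 tested probe sets (vertical axis), in wild type, in Oct-1 mutant and averaged over both. Filled points passed an adjusted p under 0.05. Acadvl sits furthest right at 0.39 in wild type, and Elovl6 1417403_at furthest left at -0.57 in mutant cells.

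Acadvl, the very long-chain acyl-CoA dehydrogenase that opens each round of oxidation on long chains, gave the clearest rise. Probe set 1424184_at read 9.43, 9.28, 9.40 and 9.49 in wild type unirradiated replicates 1 to 4 and 9.83, 9.74, 9.87 and 9.73 after irradiation. In mutant cells it read 9.69, 9.70, 9.57 and 9.59 unirradiated and 9.89, 9.99, 9.99 and 9.77 irradiated. Every irradiated array of either genotype lay above every unirradiated array. The group means ran, in order, from 9.40 ± 0.09 (SD, n = 4) in wild type unirradiated through 9.64 ± 0.07 in mutant unirradiated and 9.79 ± 0.07 in wild type irradiated to 9.91 ± 0.11 in mutant irradiated cells. Of the neighbours in that order, the last pair overlapped and the other pairs did not. Irradiation raised Acadvl 1.31-fold in wild type (log2 0.39, SE 0.07, adjusted p = 0.00333) and 1.21-fold in mutant cells (log2 0.27, SE 0.07, adjusted p = 0.0341). In the first and second number run, with 2 arrays a group, the wild type rise was 0.44 and 0.35 (adjusted p = 0.0324 and 0.113). Averaged over genotypes the rise was 0.33 (SE 0.05, adjusted p = 0.000288), and it was 0.34 in the first number run and 0.33 in the second (adjusted p = 0.00988 and 0.0216). The mutant call did not hold without mutant unirradiated replicate 1, 3 or 4 or mutant irradiated replicate 1, 2 or 3 (adjusted p up to 0.102 over the left-out arrays). The rise differed between genotypes by -0.12 (mutant minus wild type, SE 0.10, adjusted p = 1.0).

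**Figure D2:**
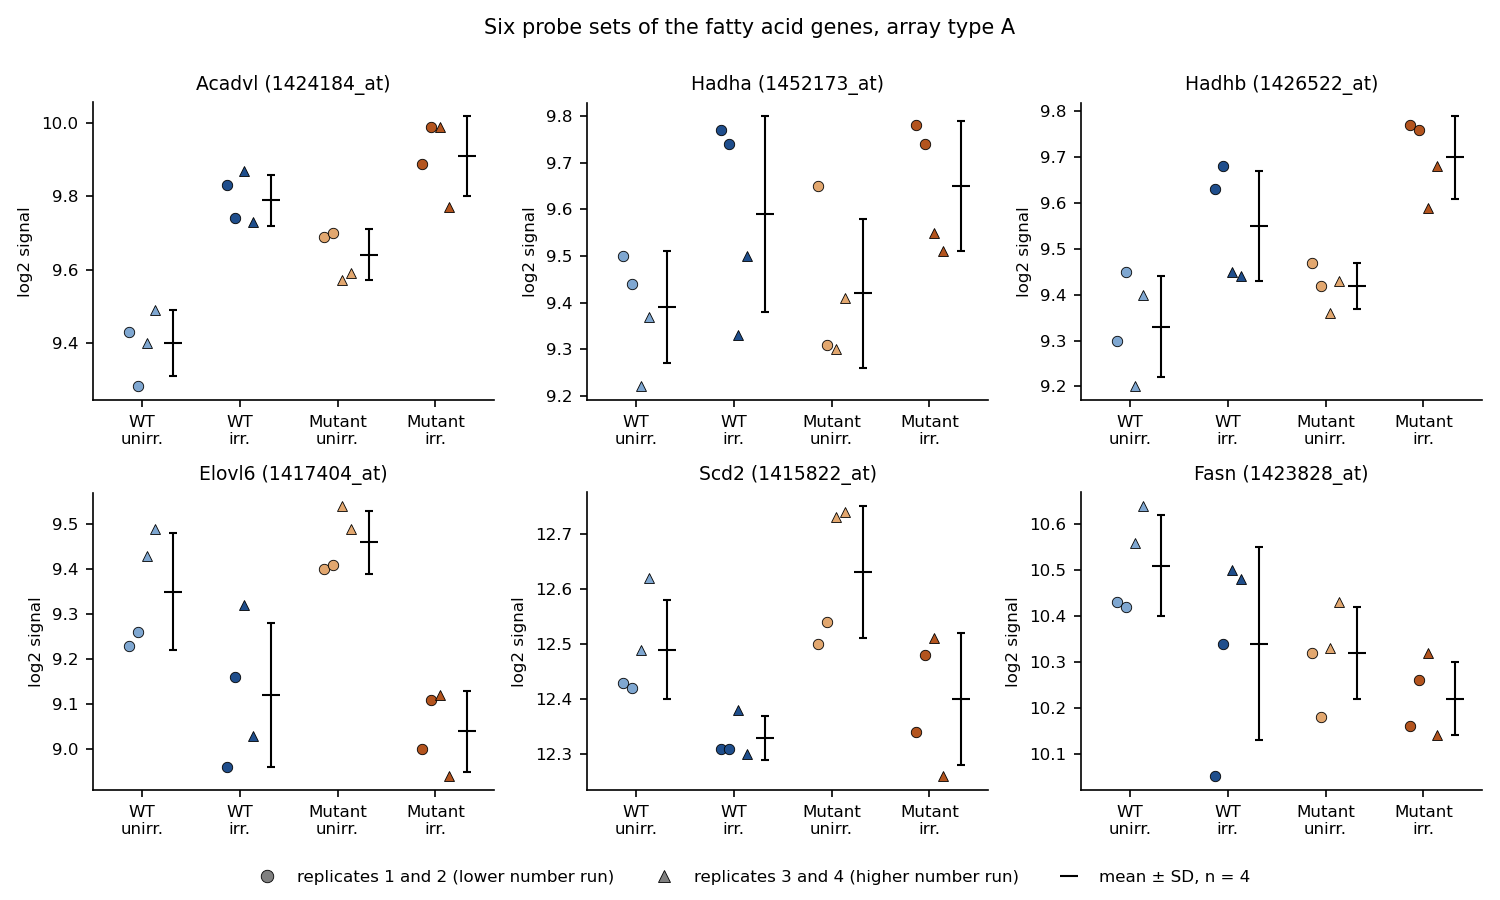
Log2 signal on array A (vertical axis) in each replicate of the 4 groups (horizontal axis) for 6 probe sets, with circles for replicates 1 and 2, triangles for replicates 3 and 4, and mean ± SD over 4. Vertical axes differ between panels and do not start at 0. Acadvl lies between 9.28 and 9.49 in wild type unirradiated and between 9.73 and 9.87 in wild type irradiated cells, with no overlap.

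The other acyl-CoA dehydrogenases among the 10 genes did not pass in any comparison. Acadm, the medium-chain enzyme, had group means between 8.55 and 8.68 with SDs of 0.06 to 0.12. Its change with irradiation averaged over genotypes was -0.07 (SE 0.06, adjusted p = 0.537). Acadl, the long-chain enzyme, had group means of 10.71 to 10.89 on 1448987_at with SDs of 0.06 to 0.21, and its averaged change was 0.09 (SE 0.07, adjusted p = 0.432). In Acadl the irradiated replicate was higher than the unirradiated one of the same number in 4 of 4 wild type pairs and in 2 of 4 mutant pairs.

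Hadha encodes the alpha subunit of the trifunctional protein, which carries the hydratase and long-chain hydroxyacyl-CoA dehydrogenase activities. It read 9.5, 9.44, 9.22 and 9.37 in wild type unirradiated and 9.77, 9.74, 9.33 and 9.5 in wild type irradiated cells. The mutant values were 9.65, 9.31, 9.30 and 9.41 unirradiated and 9.78, 9.74, 9.55 and 9.51 irradiated. The groups overlapped in both genotypes, yet the irradiated array was higher than its same-numbered partner in 4 of 4 pairs of each genotype, by 0.11 to 0.29 in wild type and by 0.10 to 0.43 in mutant cells. The averaged difference was 0.21 (SE 0.08, adjusted p = 0.0893), with an adjusted p of 0.00518 under the replicate block. In mutant cells alone it was 0.23 (SE 0.11, adjusted p = 0.304, 0.0434 with the block). Without wild type irradiated replicate 3 or mutant unirradiated replicate 1 the averaged Hadha difference also passed (adjusted p = 0.0389 and 0.0457).

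Hadhb encodes the beta subunit, the thiolase of the same complex, and its 2 tested probe sets disagreed. Probe set 1426522_at read 9.30, 9.45, 9.20 and 9.40 in wild type unirradiated and 9.63, 9.68, 9.45 and 9.44 in wild type irradiated cells. Mutant arrays gave 9.47, 9.42, 9.36 and 9.43 unirradiated and 9.77, 9.76, 9.59 and 9.68 irradiated, with no overlap. It rose by 0.29 in mutant cells (1.22-fold, SE 0.08, adjusted p = 0.0422) and by 0.25 averaged over genotypes (SE 0.05, adjusted p = 0.00558). In wild type the difference was 0.22 (SE 0.08, adjusted p = 0.144, 0.0322 with the replicate block). The mutant call did not hold without wild type unirradiated replicate 1 or 4, any of the 4 mutant unirradiated replicates, or mutant irradiated replicate 1, 2 or 4 (adjusted p up to 0.113). The averaged rise held in every one of the 16 single-array removals (adjusted p up to 0.0138), and was 0.31 in the first number run and 0.20 in the second (adjusted p = 0.015 and 0.101).

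The second Hadhb probe set, 1437172_x_at, belongs to a class whose probes may also match other transcripts. It read 11, 10.84, 10.96 and 10.64 in wild type unirradiated and 10.78, 10.82, 10.73 and 10.80 in wild type irradiated cells. The values in mutant cells were 11.11, 11.07, 11.02 and 10.42 unirradiated and 10.74, 10.71, 10.90 and 10.85 irradiated. The mutant unirradiated replicate 4 stood below the other 3 of its group. The averaged difference with irradiation was -0.09 (SE 0.09, adjusted p = 0.588). Without that replicate it was -0.17 (adjusted p = 0.0493), opposite in sign to the change of 1426522_at, and it was -0.24 in the first number run and 0.06 in the second (adjusted p = 0.028 and 0.815). Which probe set follows the Hadhb transcript was not tested.

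Cpt1a, the carnitine palmitoyltransferase of the outer mitochondrial membrane that gates entry of long-chain fatty acids, had 3 tested probe sets, all with lower irradiated means. Probe set 1434866_x_at had group means of 7.07 ± 0.33 and 6.78 ± 0.11 in wild type unirradiated and irradiated cells, and of 7.35 ± 0.13 and 6.99 ± 0.15 in mutant cells (SD, n = 4). Its mutant groups did not overlap, with 7.26 to 7.54 unirradiated and 6.77 to 7.14 irradiated. Averaged over genotypes this Cpt1a probe set fell by 0.33 (SE 0.10, adjusted p = 0.0413). That call was lost in 11 of 16 single-array removals (adjusted p 0.0104 to 0.0842): it held only without wild type unirradiated replicate 2 or 3, wild type irradiated replicate 4, mutant unirradiated replicate 4 or mutant irradiated replicate 3. In the first and second number run the difference was -0.41 and -0.25 (adjusted p = 0.113 and 0.182). The brightest Cpt1a probe set, 1460409_at, differed by -0.16 (SE 0.10, adjusted p = 0.334) and 1438156_x_at by -0.08 (SE 0.10, adjusted p = 0.699).

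On the synthesis side, Fasn, the multifunctional enzyme that makes palmitate, did not pass with irradiation. Probe set 1423828_at read 10.43, 10.42, 10.56 and 10.64 in wild type unirradiated and 10.05, 10.34, 10.50 and 10.48 in wild type irradiated cells. Mutant cells gave 10.32, 10.18, 10.33 and 10.43 unirradiated and 10.16, 10.26, 10.32 and 10.14 irradiated. The averaged difference with irradiation was -0.13 (SE 0.07, adjusted p = 0.23), with wild type irradiated replicate 1 the lowest array of all.

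Elovl6, the elongase that lengthens palmitate to stearate, fell with irradiation on both tested probe sets. Probe set 1417404_at read 9.23, 9.26, 9.43 and 9.49 in wild type unirradiated and 8.96, 9.16, 9.32 and 9.03 in wild type irradiated cells. In the mutant, the values were 9.40, 9.41, 9.54 and 9.49 unirradiated and 9.0, 9.11, 9.12 and 8.94 irradiated. The mutant groups were fully separated, while the wild type groups overlapped through irradiated replicate 3. The irradiated array was lower than its same-numbered partner in 8 of 8 pairs. Elovl6 fell by 0.42 in mutant cells (to 0.75 of the unirradiated level, SE 0.09, adjusted p = 0.00972), and its difference in wild type was -0.24 (SE 0.09, adjusted p = 0.171, 0.0468 with the replicate block). Averaged over genotypes the fall was 0.33 (SE 0.06, adjusted p = 0.0021), and the difference was -0.27 in the first number run and -0.39 in the second (adjusted p = 0.0424 and 0.0184). The genotypes' Elovl6 changes differed by -0.18 (mutant minus wild type, SE 0.12, adjusted p = 1.0).

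The second Elovl6 probe set, 1417403_at, had group means of 7.63 ± 0.09 and 7.28 ± 0.19 in wild type unirradiated and irradiated cells, and of 7.70 ± 0.28 and 7.13 ± 0.48 in mutant cells (SD, n = 4). Mutant irradiated replicate 4 was the lowest array, at 6.46. The averaged fall was 0.46 (SE 0.14, adjusted p = 0.0386). This Elovl6 call was lost in 10 of 16 single-array removals (adjusted p 0.0155 to 0.0798): it held only without wild type unirradiated or irradiated replicate 4, mutant unirradiated replicate 4 or mutant irradiated replicate 1, 2 or 4. In mutant cells alone the Elovl6 difference on this probe set was -0.57 (SE 0.19, adjusted p = 0.118, 0.0315 with the replicate block). It was -0.35 without mutant irradiated replicate 4 and reached -0.73 without mutant irradiated replicate 2, and it was -0.41 in the first number run and -0.74 in the second (adjusted p = 0.169 and 0.136).

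Scd1 and Scd2 encode stearoyl-CoA desaturases, which put the first double bond into saturated chains. Scd2 probe set 1415822_at read 12.43, 12.42, 12.49 and 12.62 in wild type unirradiated and 12.31, 12.31, 12.38 and 12.30 in wild type irradiated cells. Mutant replicates read 12.50, 12.54, 12.73 and 12.74 unirradiated and 12.34, 12.48, 12.51 and 12.26 irradiated. The wild type groups did not overlap, and the mutant groups overlapped by a single array. Averaged over genotypes, Scd2 fell by 0.20 (SE 0.05, adjusted p = 0.0163), lower in 8 of 8 same-numbered pairs, and the call held in all 16 single-array removals. The difference was -0.11 in the first number run and -0.28 in the second (adjusted p = 0.21 and 0.0278). In mutant cells the Scd2 difference was -0.23 (SE 0.07, adjusted p = 0.0782, 0.025 with the replicate block) and in wild type -0.16 (SE 0.07, adjusted p = 0.276).

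The other 2 Scd2 probe sets and Scd1 1415965_at were split by number run. Scd2 1415824_at read 9.99 to 10.67 in the unirradiated replicates of the first run and 8.16 to 8.25 in those of the second, and averaged over groups its difference, second minus first run, was -2.11. That difference was -0.74 for Scd2 1415823_at and -0.95 for Scd1 1415965_at, and all 3 were lower in the second run in 4 of 4 groups. The brightest probe set of each gene did not share this split, with run differences of 0.09 for Scd2 1415822_at and 0.01 for Scd1 1415964_at. Nothing in the labels says what separates the runs, and the cause was not tested. Averaged differences with irradiation were -0.12 (SE 0.20, adjusted p = 0.786) for 1415823_at and -0.35 (SE 0.57, adjusted p = 0.774) for 1415824_at.

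Scd1 1415964_at had group means of 9.6 to 9.74 with SDs of 0.04 to 0.12, and its averaged difference with irradiation was -0.01 (SE 0.05, adjusted p = 0.924). Scd1 1415965_at read 7.82, 7.82, 7.24 and 7.10 in wild type unirradiated and 7.72, 7.94, 6.47 and 6.87 in wild type irradiated cells. The mutant arrays read 8.12, 7.89, 7.19 and 7.27 unirradiated and 7.92, 7.50, 6.53 and 6.44 irradiated. Within each run the mutant irradiated arrays lay below or between the unirradiated ones. The averaged Scd1 difference on this probe set was -0.38 (SE 0.26, adjusted p = 0.399), and under the replicate block its adjusted p was 0.00932. It was -0.14 in the first number run and -0.62 in the second (adjusted p = 0.459 and 0.00739). In mutant cells it was -0.52 (SE 0.37, adjusted p = 0.533, 0.0212 with the block).

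**Figure D3:**
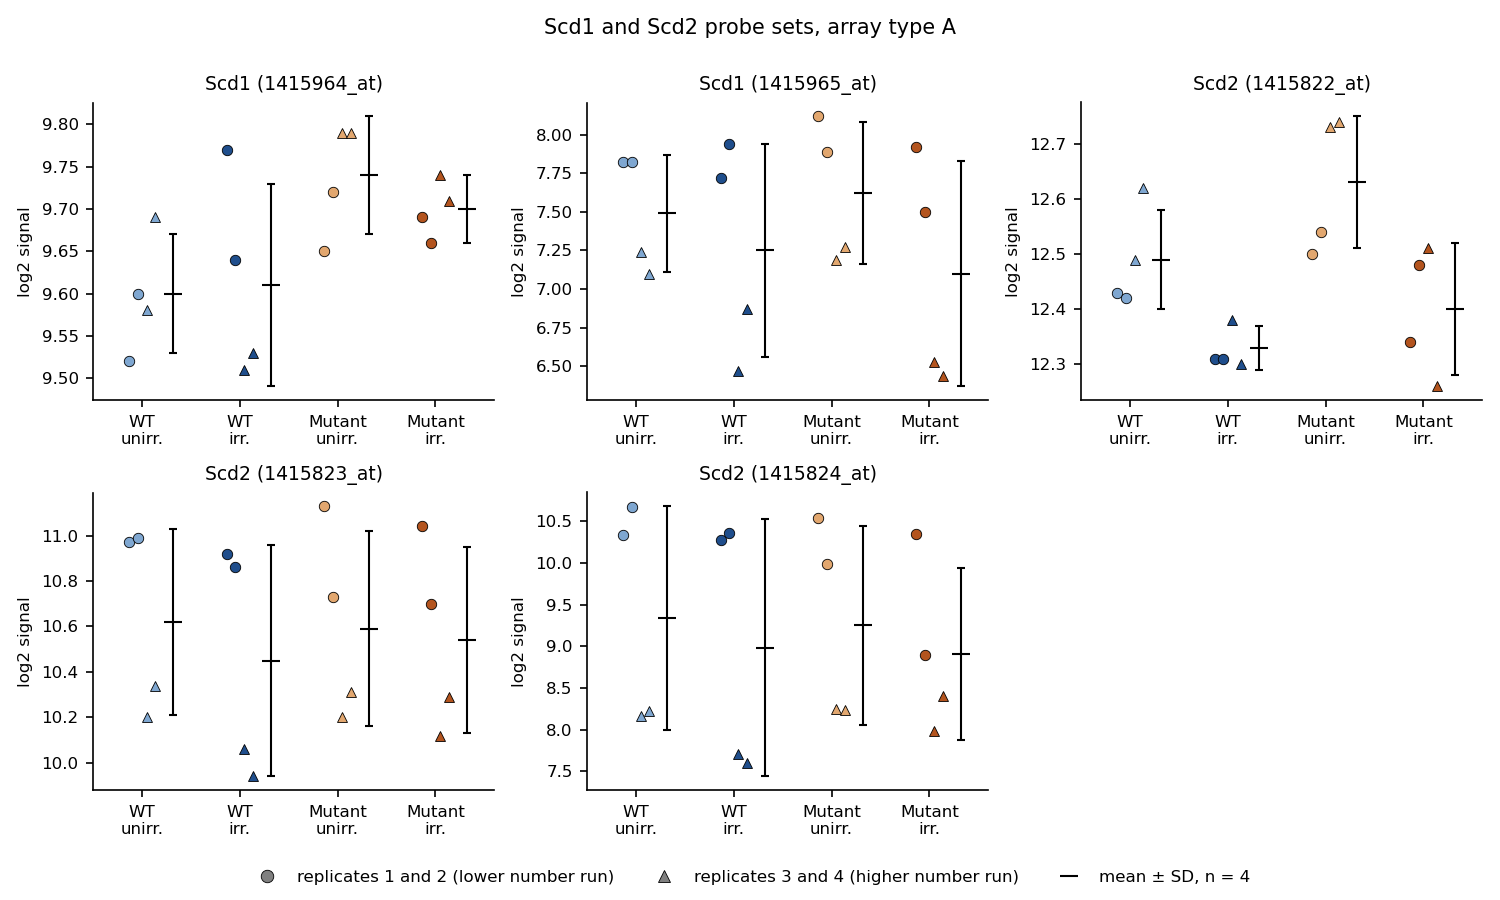
Log2 signal on array A (vertical axis) in each replicate of the 4 groups (horizontal axis) for 2 Scd1 and 3 Scd2 probe sets, with circles for replicates 1 and 2, triangles for replicates 3 and 4, and mean ± SD over 4. Vertical axes differ between panels and do not start at 0. In 1415965_at, 1415823_at and 1415824_at the triangles lie below the circles in all 4 groups.

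Whether the mutation altered the response to irradiation was addressed by the difference of the irradiation effects. Limma called 0 of 17 member probe sets, against 0% of the 13582 tested, and 0 with the replicate block. At an unadjusted p under 0.05 there were 0 member probe sets and 147 of all, or 416 of all with the block. The differences for the 17 probe sets ran from -0.28 (Scd1 1415965_at, SE 0.52) to 0.13 (Cpt1a 1460409_at, SE 0.20), so effects of the size seen for Acadvl in wild type could not be told from their error on the noisier probe sets.

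Between genotypes, Acadvl was higher in Oct-1 mutant than in wild type cells and no other member passed in the main model. Averaged over irradiation 1 of 17 member probe sets passed (5.88%), against 10.6% of all tested on array A, and the median difference over the 17 was 0.04 beside 0.00 over all. Acadvl was higher by 0.18 (1.13-fold, SE 0.05, adjusted p = 0.03), with the mutant array above its same-numbered wild type partner in 8 of 8 pairs. In unirradiated cells the Acadvl difference was 0.24 (SE 0.07, adjusted p = 0.0752, 0.0381 with the replicate block) and the groups did not overlap. In irradiated cells it was 0.12 (SE 0.07, adjusted p = 0.5) and they did. The averaged difference was 0.16 with median centring of the arrays (adjusted p = 0.0672), 0.25 in the first number run and 0.11 in the second (adjusted p = 0.0515 and 0.352). The call was also lost in 8 of 16 single-array removals (adjusted p up to 0.0644), those of wild type unirradiated replicates 2 and 3, wild type irradiated replicates 2 and 4, mutant unirradiated replicates 1 and 2 and mutant irradiated replicates 2 and 3.

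In unirradiated cells alone 0 of 17 member probe sets passed, against 3.87% of all. At an unadjusted p under 0.05 there was 1 of 17, against 1970 of the 13582 tested. With the replicate block 1 passed, Acadvl (5.88%, against 11.1%). In irradiated cells 0 passed, against 3.8% of all, and 0 with the block, against 10.4%. At an unadjusted p under 0.05 there were 0 of 17 in irradiated cells, against 1985 of 13582. With the block the averaged comparison gave 2 of 17 (11.8%, against 22.5%), Acadvl and Fasn. The Fasn difference averaged over irradiation was -0.16 (mutant minus wild type, SE 0.07, adjusted p = 0.156, 0.0435 with the block). In unirradiated cells the mutant Fasn value was below its same-numbered wild type partner in 4 of 4 pairs, and in irradiated cells in 3 of 4. The Fasn difference was -0.08 in the first number run and -0.24 in the second (adjusted p = 0.607 and 0.0315), and without wild type irradiated replicate 1 it was -0.21 (adjusted p = 0.0278). Fibroblast markers moved between genotypes as well: their mean level on array A was 11.33 to 11.65 over the wild type and 11.71 to 12.23 over the mutant arrays, and 4 of 15 passed, all higher in mutant, or 13 of 15 with the replicate block, all higher, against 22.5% of all probe sets. The mean level of the neural and glial markers was 5.65 to 5.99 over the wild type and 5.38 to 5.63 over the mutant arrays; 0 of 5 tested on array A passed, and 2 were lower in mutant with the block. Of these, Map2, a neuronal microtubule protein, was lower on its array B probe set (-0.80, SE 0.16, adjusted p = 0.017). Col2a1, the collagen of cartilage, was lower in mutant cells (-1.27, SE 0.11, adjusted p = 9.12e-07), 1 of 2 cartilage and bone markers tested, and the epithelial keratin Krt18 was higher (0.46, SE 0.11, adjusted p = 0.0165), 1 of 3. In bulk RNA, a changed share of cells and a changed amount of RNA per cell cannot be told apart, and the part of these shifts in the Acadvl difference was not tested.

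**Figure D4:**
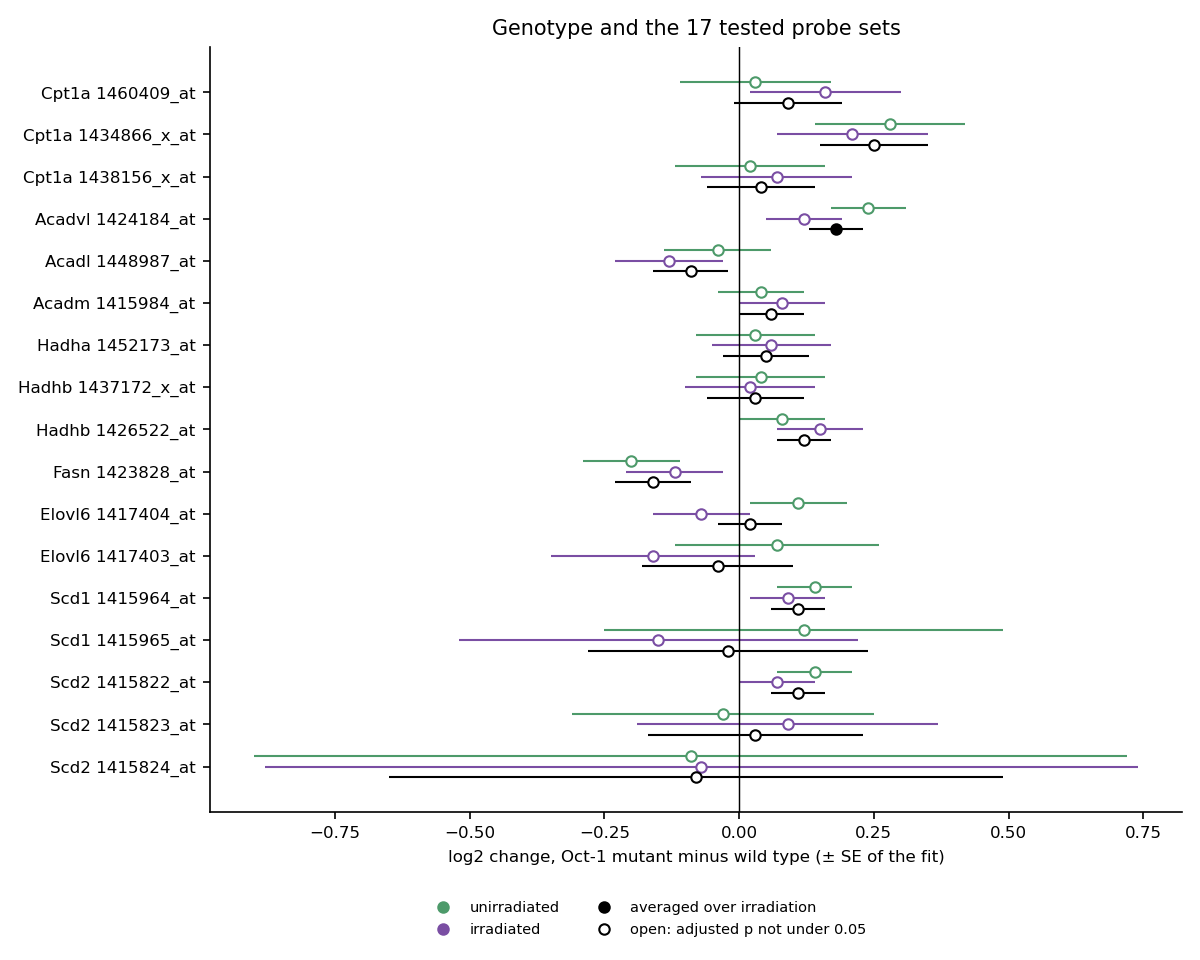
Log2 difference between genotypes, Oct-1 mutant minus wild type (horizontal axis, bars ± SE of the fit), for the 17 tested probe sets (vertical axis), in unirradiated cells, irradiated cells and averaged over both. The filled point, which passed an adjusted p under 0.05, is the averaged Acadvl value of 0.18.

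The wider pathway lists place these genes among their neighbours, and they were likewise chosen with earlier results of these data known. The brightest probe set spoke for a gene in a list, and lists share some genes. In the mitochondrial beta oxidation list, 7 of 20 genes tested on array A rose with irradiation averaged over genotypes, 0 fell and 13 did not pass, with a median change of 0.17 beside 0.01 over all probe sets, of which 12.8% passed in either direction. Without the members 6 of 15 rose and 0 fell, with a median of 0.17. Acad11, an acyl-CoA dehydrogenase of long chains known as a p53 target, rose from 5.93 to 7.19 in wild type and from 6.42 to 7.73 in mutant cells (averaged 1.28, SE 0.12, adjusted p = 3.26e-06). Acad8, which acts on isobutyryl-CoA in valine breakdown, rose from 7.88 to 8.74 and from 7.90 to 9.07 (averaged 1.02, SE 0.07, adjusted p = 1.99e-07). Second probe sets of both genes rose too, by 1.17 for Acad11 and 0.78 for Acad8 (adjusted p = 0.000234 and 0.000855). Acad9, which is also an assembly factor of respiratory complex I, rose by 0.30 (SE 0.08, adjusted p = 0.0145), while its other probe set differed by 0.06 (SE 0.09, adjusted p = 0.77). Acaa2 differed by 0.17 on its brightest probe set, and by 0.13 and 0.08 on its others (adjusted p = 0.254 and 0.865). Hsd17b10 differed by 0.23, and by 0.18 on its other probe set (adjusted p = 0.228). With the replicate block 11 of 20 rose and 0 fell, against 25.2% of all array A probe sets that passed in either direction.

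**Figure D5:**
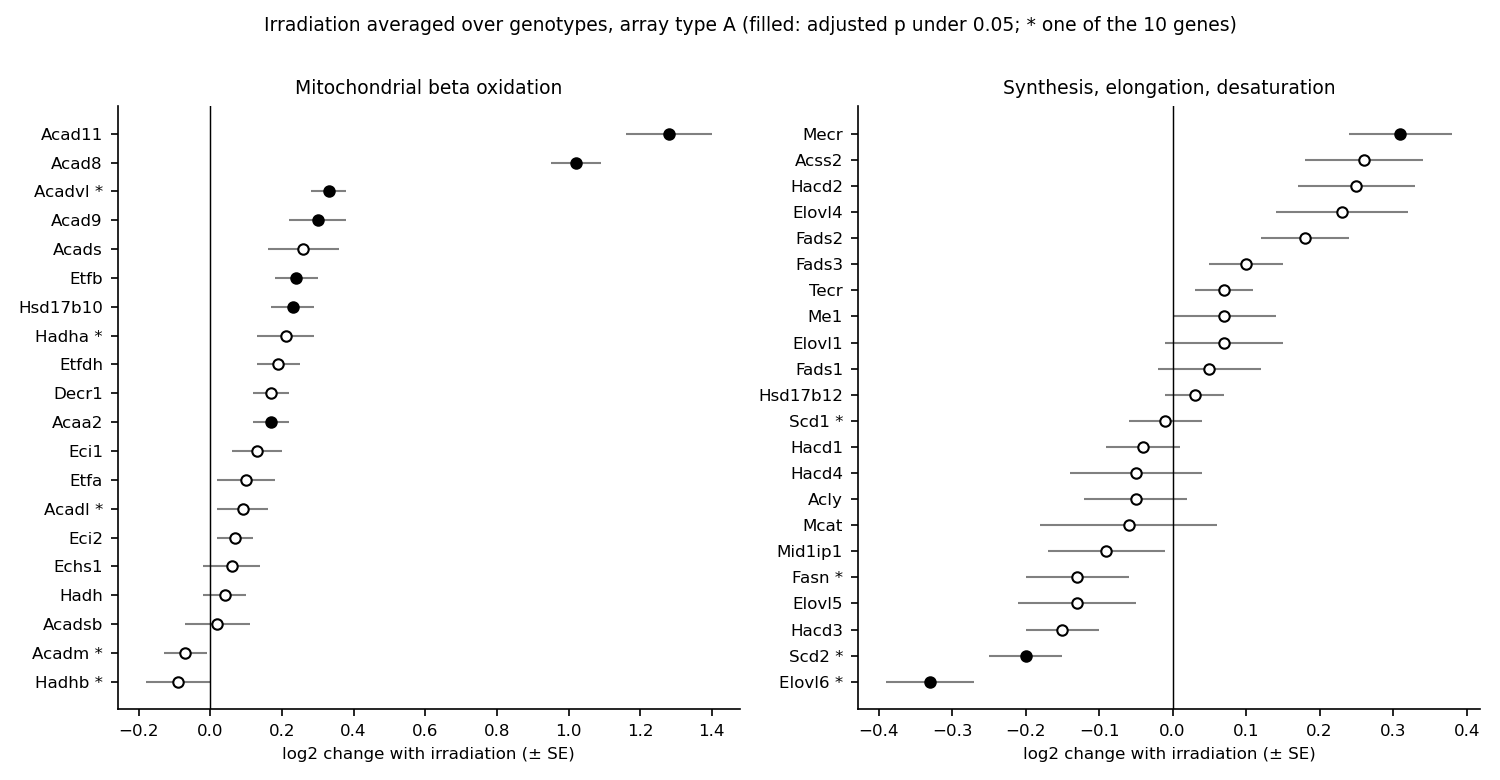
Log2 change with irradiation averaged over genotypes (horizontal axis, bars ± SE) for each gene (vertical axis) of the mitochondrial beta oxidation list and of the synthesis, elongation and desaturation lists on array A. Filled points passed an adjusted p under 0.05 and stars mark the 10 genes. The left panel has 7 filled points above 0 and 0 below, led by Acad11 at 1.28, and the right panel has Elovl6 at -0.33 lowest.

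Counts in the synthesis-side and carnitine shuttle lists stand beside the same 12.8% of all array A probe sets. Of 7 fatty acid synthesis genes on array A, 1 rose with irradiation and 0 fell: Mecr, the reductase of the mitochondrial synthesis pathway (0.31, SE 0.07, adjusted p = 0.00786), whose other probe set differed by 0.06 (adjusted p = 0.708). In the elongation and desaturation list 2 of 15 fell, Elovl6 and Scd2, and 0 rose. Without Elovl6, Scd2 and Scd1, 0 of 12 passed in either direction in the main model. With the replicate block 2 were higher and 1 lower, against 25.2% of all array A probe sets. Of 6 carnitine shuttle genes on array A, 1 rose and 0 fell: Crot, the peroxisomal carnitine octanoyltransferase (0.33, SE 0.08, adjusted p = 0.0172). Cpt1c, a relative of Cpt1a best known from neurons, was measured on array B only, which the 12.8% does not cover. It rose from 8.50 to 9.08 in wild type and from 8.92 to 9.46 in mutant cells (averaged 0.56, SE 0.06, adjusted p = 0.000115). Cpt1c was also 0.40 higher in mutant cells (SE 0.06, adjusted p = 0.0032).

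In the lists on peroxisomes, uptake and storage, the counts stand beside 7.38% of all array A probe sets that rose and 5.47% that fell. Of 9 peroxisomal genes 1 rose, Scp2 (0.24, SE 0.05, adjusted p = 0.0081), and 0 fell; its other 2 tested probe sets differed by -0.13 and 0.30 and did not pass. In the uptake, binding and activation list 1 of 15 rose and 1 fell. Slc27a3, a member of the fatty acid transport protein family, rose by 1.66 (SE 0.20, adjusted p = 3.54e-05) from a wild type unirradiated mean of 4.33, below the filter level of 4.96, and Acsl4, the synthetase that prefers arachidonate, fell by 0.46 (SE 0.13, adjusted p = 0.0267), with -0.24 and -0.29 on its other probe sets (adjusted p = 0.595 and 0.0747). Of 13 storage and lipolysis genes 2 rose, Abhd5, the coactivator of adipose triglyceride lipase (0.30, SE 0.07, adjusted p = 0.0142), and the acyltransferase Agpat3 (0.21, SE 0.06, adjusted p = 0.0366), and 0 fell. Agpat3 had 3 probe sets on array B, which differed by 0.11, -0.06 and 0.00 (adjusted p = 0.786, 0.847 and 0.993).

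Among 16 regulators on array A, 5 rose with irradiation and 1 fell, beside 7.38% and 5.47% of all probe sets. Lpin1, a phosphatidate phosphatase that also coactivates oxidation genes, rose by 1.46 (SE 0.16, adjusted p = 1.92e-05) and by 1.52 on its other probe set (adjusted p = 7.56e-07). Nfyb, a subunit of NF-Y, rose by 0.69 (SE 0.13, adjusted p = 0.00178). Esrra, the oestrogen-related receptor of mitochondrial genes, rose by 0.42 (SE 0.11, adjusted p = 0.0189), although an array B probe set differed by -0.12 (adjusted p = 0.746). Scap, the escort of the sterol response factors, rose by 0.27 (adjusted p = 0.0235) and Prkag1, a subunit of AMP-activated kinase, by 0.23 (adjusted p = 0.0406, with 0.01 on its other probe set). Pparg, the regulator of fat cell genes, fell by 0.44 (SE 0.14, adjusted p = 0.0492). On array B, Ppard rose by 0.55 (SE 0.09, adjusted p = 0.00369), 1 of 7 regulators there. The shares above are for array A alone, and over both array types 2034 of 27084 probe sets passed in either direction.

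Between genotypes the same lists were mixed. In mitochondrial beta oxidation 5 of 20 were higher in mutant cells averaged over irradiation and 1 lower, beside 10.6% of all probe sets that passed. Beside Acadvl, the higher genes were Acad11 by 0.52 (adjusted p = 0.012), Acadsb by 0.34 (adjusted p = 0.0229), Acad9 by 0.26 (adjusted p = 0.0405, with -0.21 on its other probe set) and Eci2 by 0.22 (adjusted p = 0.0107). Decr1, the dienoyl-CoA reductase for unsaturated chains, was lower (-0.23, adjusted p = 0.0114). In the uptake list, the binding proteins Fabp4 (-0.52, adjusted p = 0.00118) and Fabp5 (-0.28, adjusted p = 0.0184, with -0.23 and adjusted p = 0.203 on its other probe set) were lower and Slc27a3 (0.67, adjusted p = 0.0412) and Acot1 (0.32, adjusted p = 0.0451) were higher, 2 and 2 of 15. The unirradiated means of Slc27a3, 4.33 in wild type and 4.86 in mutant, lay below the filter level of 4.96, and it passed the filter through its irradiated means of 5.84 and 6.66. In synthesis Acss2 was higher (0.38, adjusted p = 0.00658) and Mid1ip1 lower (-0.35, adjusted p = 0.0118), 1 and 1 of 7. In elongation and desaturation Tecr was higher (0.29, adjusted p = 0.000447) and Elovl4 lower (-0.54, adjusted p = 0.000977), 1 and 1 of 15. The storage list had Plin3 (0.32, adjusted p = 0.0376) and Lipa (0.30, adjusted p = 0.00725) higher and Plin2 (-0.38, adjusted p = 0.0296) lower, 2 and 1 of 13. The other Lipa probe sets differed by 0.24 and 0.12 (adjusted p = 0.428 and 0.377). Of 16 regulators 1 was higher, Rxra (0.21, adjusted p = 0.0375).

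Fabp4 and Pparg are also adipocyte markers. Of 11 adipocyte markers on array A, 3 passed the level filter (Fabp4, Pparg and Cebpa), and Adipoq, Lep and Cidea were among the 8 that did not. The mean level over the 11 was 4.06 to 4.07 in wild type unirradiated, 4.00 to 4.04 in wild type irradiated, 3.98 to 4.13 in mutant unirradiated and 3.93 to 4.05 in mutant irradiated arrays. The part of such cells in the lipid gene differences was not tested.

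Each member's nearest patterns were sought among 7817 other genes over the 16 arrays, after the mean of each number run was removed. These correlations are descriptions: the arrays share the group layout, so genes that answer irradiation resemble each other. Acadvl was nearest to Ndufb2, a subunit of respiratory complex I (r = 0.96, rho = 0.96), and Tpst2 (r = 0.96, rho = 0.95). Elovl6 was nearest to the mitotic genes Cdc20 (r = 0.91, rho = 0.88) and Ccnb2 (r = 0.90, rho = 0.89). Hadha was nearest to Fam162a and Zfp219 (both r = 0.89, rho = 0.91), Scd2 to Cald1 (r = 0.90, rho = 0.86) and Hcfc1 (r = 0.89, rho = 0.91), and Scd1 to Adh7 (r = 0.91, rho = 0.93) and Col6a2 (r = 0.85, rho = 0.86). Fasn was nearest to Oxsr1 (r = 0.87, rho = 0.85) and Rad1 (r = 0.87, rho = 0.91). The remaining members had nearest genes at r of 0.79 to 0.83: Galnt11 and Tspan14 for Acadm, Rps27l and Idnk for Acadl, Epc1 and Abcd3 for Cpt1a, and Xiap and Tspyl1 for Hadhb 1437172_x_at.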

How the data were processed

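Total RNA of 16 extracts was hybridised to both array types, 32 samples in all. The authors deposited 1 log2 value per probe set and sample, and the log base was inferred from the range (0.265 to 15.75 on array A). The authors summarised and scaled the arrays in a way not given in the sources used here. Values entered the fits unscaled, since array medians differed little, from 6.16 to 6.28 on array A and from 3.67 to 3.78 on B. Gene names came from the platform annotation, with symbols updated by gene identifier for 20351 of 20380 single-gene probe sets on array A and 14486 of 14661 on array B.

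After removal of 64 control probe sets per array type, the filter required a mean of at least the 40th percentile (4.96 and 3.36 on arrays A and B), which 13582 and 13502 probe sets met. Each array type was fitted over all of them with limma 3.58.1 in R 4.3.3 on 4 group means, with a variance trend. Tests were two-sided, with Benjamini-Hochberg adjustment within array type and comparison and a call at 0.05. Python 3.11.15, numpy 2.4.6, pandas 2.3.3 and matplotlib 3.10.9 were used for summaries. The fit was tested on simulated data. There were 7 comparisons.

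All probe sets of the 10 genes were described. The brightest spoke for a gene in the lists and nearest patterns. In each list the called genes with the smallest adjusted p were named, at most 4, or all where up to 6 were called. Acaa2 and Hsd17b10 were named beside these for their other probe sets. The members and lists were chosen with earlier results of these data known. Alternatives were a replicate block, a number run block, each run alone, no or a 60th percentile filter, quantile normalization, median centring, no variance trend and removal of each array.

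Same-numbered samples deviated together from their group means, with correlations of 0.32 to 0.72 on array A and of 0.24 to 0.60 on B. Replicate numbers were therefore taken as pairing the samples. The medians were 0.58 and 0.44, beside 0.56 and 0.40 for samples of different replicate number in the same number run. Same-numbered samples thus hardly differed from others of their run, and the correlations cannot tell a pairing from the shared run. The pairing rests on these correlations and not on a statement in the labels. The 4 arrays per group limit the precision.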

Additional observations from a re-analysis of the deposited data

Results flagged for a closer look

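In 80 groups of 4 replicates, 1 for each of the 20 member probe sets and 4 groups, the gap of the highest or lowest replicate to its neighbour was set against the range of the group. Chance alone puts about 1 in 20 groups over the critical value of this ratio, and 3 groups were over it. For Hadhb 1437172_x_at the mutant unirradiated replicate 4 (10.42, the others 11.02 to 11.11) gave a ratio of 0.88. For Cpt1a 1460409_at the mutant irradiated replicate 3 (7.37, the others 7.62 to 7.65) gave 0.883. For Hadhb 1442732_at on array B, a probe set below the level filter, the wild type irradiated replicate 1 (3.39, the others 3.20 to 3.23) gave 0.84.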

How the results depend on the processing

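No member value called in the main model reversed its sign under any alternative. Hadhb 1437172_x_at was called only under alternatives, and it did change sign between the runs. Its averaged difference with irradiation was -0.24 in the first run (adjusted p = 0.028) and 0.06 in the second. In mutant cells the same probe set differed by -0.36 in the first run (adjusted p = 0.04) and by 0.16 in the second. Of 2961 recomputed values for single member probe sets, 2869 kept their side of the threshold, 63 lost a call and 29 gained one. Only values called in the main model could lose a call, and most of the 2961 belong to values not called there. The 2869 therefore does not measure how stable the calls were, and the 63 losses fall on the few called values. The number of member probe sets called for irradiation in wild type was 1, and 3 with the replicate block, 2 with the number run block and 0 in the second run alone. For irradiation in mutant cells it was 3, and 7 with the replicate block, 6 with the number run block, 1 in either run alone, 1 without a filter, 4 with quantile normalization and 1 to 3 when each array was removed. The call in a run alone was in neither run one of the main 3. In the first run it was Hadhb 1437172_x_at, which was lower, and in the second Scd1 1415965_at (-0.75, adjusted p = 0.0312). For genotype in unirradiated cells the number called was 0, and 1 with the replicate or the number run block. For genotype averaged over irradiation it was 1, and 2 with either block, 0 in the first run alone, 0 with median centring and 0 to 2 when each array was removed. For irradiation averaged over genotypes it was 6, with a range of 4 to 8, and the difference of irradiation effects and the genotype difference in irradiated cells gave 0 under every alternative.

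Over all probe sets of both array types, the replicate block raised the calls for irradiation from 625 to 1653 in wild type, from 724 to 1938 in mutant and from 2034 to 4040 averaged over genotypes. It raised those for genotype from 585 to 1740 unirradiated, from 565 to 1632 irradiated and from 1696 to 3769 averaged. The number run block gave 1632, 1928, 3985, 1683, 1621 and 3712 in the same order. The second run alone gave 365, 366 and 1213 for the 3 irradiation comparisons. Of the averaged genotype calls 60.3% were higher in mutant, against 48.8% with median centring, under which the Acadvl genotype call was also lost. The causes were not tested. Signals close to background limit the 3 untested probe sets.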

Other observations

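All 17 tested member probe sets lay on array A, and the 2 member probe sets of array B, Elovl6 1442656_at and Hadhb 1442732_at, stayed below its filter at 3.36. In wild type cells Elovl6 1442656_at had means of 3.21 ± 0.09 unirradiated and 3.09 ± 0.01 irradiated (SD, n = 4), and in mutant cells 3.11 ± 0.09 and 3.16 ± 0.06. As this probe set lay below the filter and was not tested, it cannot show whether array B shares the fall seen on both array A probe sets of Elovl6.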
